A study of Mus musculus with 6 samples.

Results

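T-box and non-Hox patterning homeobox genes were followed in 6 mouse osteosarcomas. The members were all genes whose mouse symbol is a family name (Tbx, Pitx, Alx, Prrx, Lhx, Irx, Meis, Pbx or that of the sine oculis homeobox genes) followed by a number: 48 of the 56196 genes counted. They comprise 13 T-box genes, 8 LIM homeobox genes, 8 paired-related genes (Prrx, Alx and Pitx) and 6 Iroquois genes (Irx). The others are 6 sine oculis homeobox genes and 7 Meis and Pbx genes. Irx, Meis and Pbx genes are all of the TALE class, and the Irx genes are given apart here. In the triple knockout (TKO) group, 3 tumours carried Osx1-Cre, floxed Rb1 and p53 alleles (Rb1lox/lox;p53lox/lox) and SKP2-/-. In the double knockout (DKO) group, 3 tumours carried Osx1-Cre and the same floxed Rb1 and p53 alleles with SKP2 intact. Floxed Rb1 and p53 alleles are thus shared by both groups, and in both the promoter of Osx1, also called Sp7, a regulator of early osteoblasts, drove Cre. Replicate 1 of each group was male and replicates 2 and 3 were female. The labels used here give no age and no skeletal site. Each group held tumours of both sexes, but the labels do not state that the 2 female tumours of a group came from separate mice, so part of the spread behind the p-values may be technical.

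These families encode DNA-binding proteins that place and shape embryonic tissues. T-box proteins bind through the T-box domain, and Tbx5 marks the forelimb field while Tbx4 and its activator Pitx1 mark the hindlimb field. LIM homeobox, paired-related, Iroquois and sine oculis homeobox proteins bind through a homeodomain and act in limb, face, skull and muscle primordia. MEIS and PBX proteins are cofactors of Hox proteins. In bone, Prrx1 marks limb bud mesenchyme and skeletal progenitors, and SKP2 is the F-box protein by which a ubiquitin ligase picks its substrates.

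Before any values, the promoters of 3 members are shown, because Lhx2 was the only member that passed the test between genotypes, Prrx1 was the most abundant per length, and Tbx18 had lower values in every TKO tumour. The windows are RefSeq sequence of build GRCm38.p6, from 250 bases before to 50 after an annotated start. Lhx2 has such a start at the upstream end of the gene (chr2:38339031-38339330, plus strand) and another inside it (chr2:38351058-38351357, plus strand), and there the capitals mark every CG pair. In Prrx1 (chr1:163313601-163313900, minus strand) the capitals mark the homeodomain core TAATTA, and in Tbx18 (chr9:87731211-87731510, minus strand) the MEIS site TGACAG.
Lhx2, upstream start: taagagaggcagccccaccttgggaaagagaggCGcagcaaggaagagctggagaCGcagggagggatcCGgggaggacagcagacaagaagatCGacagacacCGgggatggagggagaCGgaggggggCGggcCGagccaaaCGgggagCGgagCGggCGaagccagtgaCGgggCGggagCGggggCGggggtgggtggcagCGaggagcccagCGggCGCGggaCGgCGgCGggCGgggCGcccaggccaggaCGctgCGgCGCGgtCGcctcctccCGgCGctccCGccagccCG
Lhx2, internal start: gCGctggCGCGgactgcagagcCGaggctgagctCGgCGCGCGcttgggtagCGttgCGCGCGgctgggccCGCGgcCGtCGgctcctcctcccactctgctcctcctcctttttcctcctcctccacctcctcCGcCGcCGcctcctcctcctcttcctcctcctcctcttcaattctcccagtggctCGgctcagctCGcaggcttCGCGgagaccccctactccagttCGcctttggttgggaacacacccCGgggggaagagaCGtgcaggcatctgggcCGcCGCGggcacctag
Prrx1: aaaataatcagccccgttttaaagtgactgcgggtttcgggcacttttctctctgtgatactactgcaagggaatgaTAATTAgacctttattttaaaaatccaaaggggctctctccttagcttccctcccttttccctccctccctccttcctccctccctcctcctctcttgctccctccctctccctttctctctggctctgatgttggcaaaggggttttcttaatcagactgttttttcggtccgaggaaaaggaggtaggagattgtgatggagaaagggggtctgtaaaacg
Tbx18: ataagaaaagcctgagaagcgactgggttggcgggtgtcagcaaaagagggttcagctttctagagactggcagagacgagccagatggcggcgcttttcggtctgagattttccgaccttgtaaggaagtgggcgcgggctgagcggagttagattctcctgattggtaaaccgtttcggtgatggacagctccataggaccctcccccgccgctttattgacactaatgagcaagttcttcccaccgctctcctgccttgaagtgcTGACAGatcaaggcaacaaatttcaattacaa

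The Lhx2 windows held 34 CG pairs upstream and 29 at the internal start, more than 92.3% and 87.1% of all 32851 promoter windows. Prrx1 held 6 and Tbx18 held 15. RefSeq windows were matched for 32 members (40 windows), with a median of 16 CG pairs, against 7 over all windows. Members without a match included Alx1, Alx4, Irx1, Irx5, Irx6, Lhx5, Pbx3, Pitx1, Tbx2, Tbx3, Tbx5 and Tbx15. Motifs were searched on both strands. The MEIS site TGACAG occurred in 10 of the 40 windows and in 19.2% of all windows, and the homeodomain core TAATTA in 3 (Prrx1, Tbx6 and Tbx19) and 5.29%. The PBX site TGATTGAT was found in Tbx6 alone among the members (0.746% of all windows), and the sine oculis homeobox site TCAGGTTTC in Six4 alone (0.429%). The T-box site AGGTGTG, the PITX site TAATCC, which shares its first letters with TAATTA, and the E2F sites TTTCCCGC and TTTGGCGC were in none of the 40 windows, against 5.84%, 7.06%, 1.07% and 0.514% of all windows. These matches describe letters in a window, not binding.

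Total gene counts ran from 17063231 to 22488819 per library. The genotype labels held for Skp2, with 0 counts in each TKO library, against 20, 64 and 46 in DKO1, DKO2 and DKO3, at least 49.5-fold lower in TKO against a floor of 3 counts over the group. Rb1 and Trp53, floxed in both groups, kept reads in every library, 44.6 to 91.3 CPM in TKO and 17.9 to 22.5 CPM in DKO for Rb1 and 8.43 to 37.5 CPM in TKO and 6.02 to 7.35 CPM in DKO for Trp53. By edgeR's quasi-likelihood test Rb1 was higher in TKO (log2 fold change 1.61, adjusted p = 0.0419). Trp53 did not pass (1.75, adjusted p = 0.115), though its groups did not overlap. Counts of a whole gene do not show whether an exon is deleted. Levels are CPM, counts relative to the TMM-scaled library size, and a count of 0 allows up to 3 counts, or 0.125 to 0.178 CPM. TKO1 stood apart, with a correlation across genes of 0.83 with TKO2 and 0.805 with TKO3, against 0.915 between TKO2 and TKO3 and 0.933 to 0.954 among the DKO libraries. Osteoblast genes were uneven: 14 markers summed to 4347 CPM in TKO1, 55193 in TKO2 and 81841 in TKO3, and to 15970 to 24555 CPM in DKO. Of 12 tested, 2 were higher in TKO and 0 lower, with a median log2 fold change of 5.15. In DKO most of the sum came from Col1a1 (9931 to 11740 CPM) and Col1a2 (5306 to 11021 CPM). Alpl had 0.083, 1516 and 2032 CPM in TKO1, TKO2 and TKO3 and 8.75, 0.765 and 18.0 CPM in DKO1, DKO2 and DKO3. Runx2, the master regulator of osteoblasts, had 58.2 to 240.0 CPM in TKO and 83.1 to 97 in DKO, but Sp7 had 0, 205 and 431 CPM in TKO1, TKO2 and TKO3 and 7.96, 0 and 0.415 in DKO1, DKO2 and DKO3. Ibsp, a bone matrix gene, was at 0 in TKO1, DKO2 and DKO3. RNA of other cells differed with the genotype. Summed over 13 macrophage markers the level was 1068 to 2983 CPM in TKO and 21.6 to 130 in DKO (11 of 13 tested higher), with C1qa, C1qb and C1qc at 0 in every DKO library. For 12 endothelial markers it was 230 to 1201 CPM in TKO against 34.6 to 202 in DKO (10 of 12 higher, Emcn and Cldn5 at 0 in DKO), for 12 pericyte and smooth muscle markers 544 to 2065 in TKO against 188 to 501 in DKO (6 of 11 tested higher) and for 15 skeletal muscle markers 900 to 11322 in TKO against 4.18 to 18.1 in DKO (10 of 13 tested higher, Myf6 at 0 in DKO). Des, at 17.5, 1147 and 158 CPM in TKO1, TKO2 and TKO3, is counted in both the pericyte and smooth muscle list and the skeletal muscle list. Fewer cells of a type and less RNA per cell cannot be told apart in such bulk samples, and the part of these cells in the results below was not tested.

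Of the tested members, 1 passed the test between genotypes. Among all 48 members, 33 reached 1 CPM in at least 1 tumour, 17 in all 6 and 15 in none, and each tumour had 20 to 30 members at 1 CPM or above. Of 29 members that passed the count filter, 1 rose in TKO and 0 fell by edgeR's quasi-likelihood test with Benjamini-Hochberg adjustment, or 3.45%, against 7.36% of all 15361 tested genes called in either direction, 4.89% higher and 2.47% lower. At an unadjusted p under 0.05 there were 5 higher and 6 lower members, 37.9% of those tested, against 25% of all tested genes. DESeq2 called 5 higher and 4 lower members of 27 with an adjusted p (33.3%), against 19.0% of all genes by that tool. By limma-voom 1 higher and 1 lower member passed (6.9%), against 7.32% of all genes. With genes of at least 1 CPM (of library totals) in 1 library of each group alone, 1 of 28 members was called (3.57%), against 1.1% of all genes. The genotypes did not overlap in 9 tested members (31.0%), with TKO above in 3 and below in 6, against 32.8% of all tested genes. With no count filter, 3 of 46 members were called (6.52%), against 4.09% of all genes. By edgeR with the main filter and by limma-voom the share of members called was below that of all genes. By DESeq2, with the stricter filter and with no count filter it was above, and none of these differences was tested. For every member but Lhx2 the values below are a description. The median log2 fold change was 0.24 over the 29 members and 0.09 over all tested genes.

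**Figure D1:**
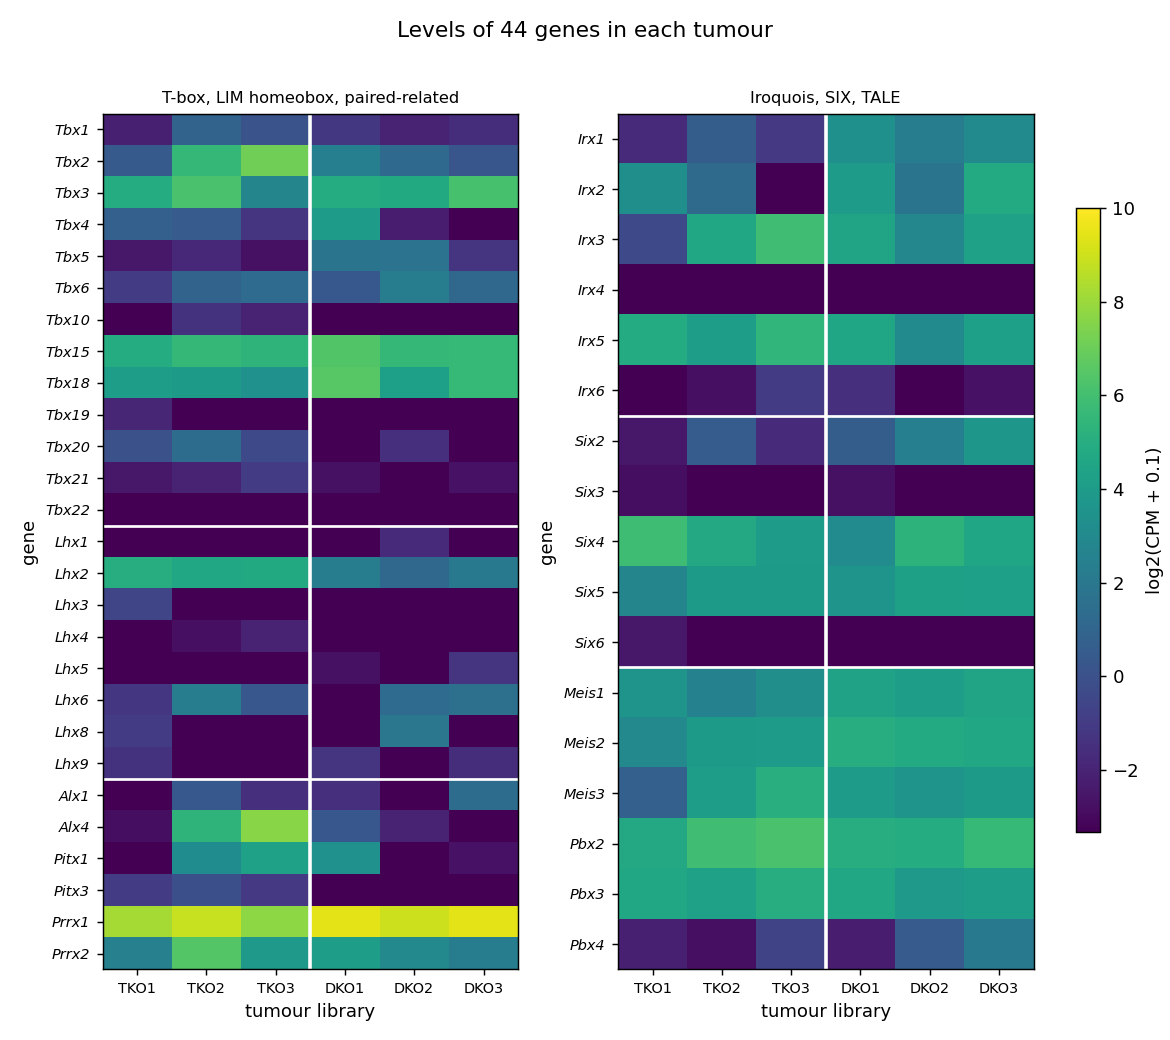
Heat map of the level of 44 of the genes (rows, grouped by family) in each tumour library (columns, TKO left of DKO), in log2(CPM + 0.1) on the colour scale. Prrx1 is the brightest row in all 6 tumours, Lhx2 is brighter in the 3 TKO columns, and Alx4, Tbx2 and Meis3 differ between TKO1 and the other TKO tumours.

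The LIM homeobox gene Lhx2 rose in TKO. LHX2 is a LIM homeodomain protein needed for forebrain and eye development, with roles in limb outgrowth and in hair follicle stem cells. Lhx2 (ENSMUSG00000000247.11, chr2:38339281-38369733, plus strand, GRCm38) had 31.0, 25.7 and 26.7 CPM in TKO1, TKO2 and TKO3, against 4.72, 2.19 and 4.09 CPM in DKO1, DKO2 and DKO3. The groups did not overlap, and the mean was 27.8 ± 2.8 CPM in TKO and 3.67 ± 1.32 CPM in DKO (SD, n = 3 each), a 7.59-fold difference (log2 fold change 2.92, SE 0.42, adjusted p = 0.0168 by edgeR's quasi-likelihood test). Among the 29 tested members it had the smallest range over the TKO tumours, 0.26 on the log2(CPM + 0.5) scale. In TKO1, TKO2 and TKO3 the macrophage sum was 1068, 2983 and 2739 CPM and the endothelial sum 230, 1201 and 1019 CPM. The sum of 10 skin and epithelial markers was 645, 21.1 and 24.5 CPM in TKO, 541 CPM of it from Krt18 in TKO1, and 3.85 to 7.31 CPM in DKO. In TKO1 the list was mixed, with Trp63 at 67.1 CPM and Krt8 at 25.2 CPM but Krt5, Krt14 and Krt1 at 0. Of its 6 tested genes 3 were higher in TKO, and the part of macrophage, endothelial or epithelial RNA in the level of Lhx2 was not tested. The call was lost without DKO1 (adjusted p = 0.0627), DKO2 (0.0695) or DKO3 (0.0806), with log2 fold changes of 3.14, 2.64 and 3.03, and it held without each TKO library (0.0134 to 0.0466). In the same refits edgeR called 39, 2 and 0 of all genes (0.237%, 0.0123% and 0% of those tested), the last with 3017 genes at an unadjusted p under 0.05.

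The other LIM homeobox genes were low. Lhx6, which acts in the jaw and in forebrain interneurons, had 0.332, 4.7 and 1.11 CPM in TKO1, TKO2 and TKO3 and 0, 2.4 and 2.9 CPM in the DKO tumours, with overlap of the groups. Lhx8, its close relative, was found almost only in DKO2, with 0.415, 0 and 0 CPM in the TKO tumours and 0, 3.82 and 0 CPM in the DKO tumours, and did not pass the count filter. Lhx1, Lhx3, Lhx4, Lhx5 and Lhx9 stayed under 1 CPM in every tumour. Lhx3, a pituitary and motor neuron gene, had 14 counts, all in TKO1.

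Among paired-related genes, Prrx1 dominated. PRRX1 is a homeodomain protein of limb bud mesenchyme, calvaria and skeletal progenitors. Per kilobase of annotated exon its mean level was 29.4 CPM in TKO and 57.9 CPM in DKO, and other high members per kilobase were Prrx2 (17.9) and Tbx2 (17.2) in TKO and Tbx15 (15.9) and Tbx18 (11.3) in DKO. Prrx1 (ENSMUSG00000026586.16, chr1:163245119-163313710) had 293, 468 and 214 CPM in TKO1, TKO2 and TKO3, against 712, 506 and 704 CPM in DKO1, DKO2 and DKO3. Every TKO value lay below every DKO value, with means of 325 ± 130 CPM in TKO and 641 ± 117 CPM in DKO (SD, n = 3 each), but the log2 fold change of -0.97 (SE 0.38) did not pass (adjusted p = 0.171). Its paralog Prrx2 had 5.56, 85.7 and 14.2 CPM in the TKO tumours and 17.5, 7.55 and 4.92 CPM in the DKO tumours. TKO2 alone was high, and without it the log2 fold change of Prrx2 was close to 0.

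Alx4, a homeobox gene of the anterior limb bud and the skull, was nearly silent in all but 2 tumours. It had 0.0415, 40.6 and 195 CPM in TKO1, TKO2 and TKO3, against 1.14, 0.153 and 0 CPM in DKO1, DKO2 and DKO3. The groups overlapped through TKO1. The log2 fold change of 7.46 (SE 2.46) did not pass (adjusted p = 0.121), but passed without TKO1 (8.02, adjusted p = 0.016), a refit that called 14.6% of all tested genes, and by DESeq2 (adjusted p = 0.0159). Alx1, which acts in facial mesenchyme, had 0, 1.15 and 0.253 CPM in the TKO tumours and 0.249, 0 and 2.55 CPM in the DKO tumours, with overlap.

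Pitx3, a gene of the lens and of dopamine neurons, was seen only in TKO, with 35 counts, against 0 in DKO. It shares exon sequence with Elovl3 on the other strand, and reads that fell in both genes were left out of these unstranded counts.

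The hindlimb genes overlapped between the genotypes, and the forelimb gene Tbx5 was low and barely separated. Pitx1 (ENSMUSG00000021506.7, chr13:55825051-55836192), the hindlimb gene, had 0, 8.72 and 19.9 CPM in TKO1, TKO2 and TKO3 and 10.5, 0 and 0.0593 CPM in DKO1, DKO2 and DKO3. Thus TKO2, TKO3 and DKO1 carried it, and TKO1, DKO2 and DKO3 had almost none (adjusted p = 0.741). Its target Tbx4 (chr11:85886422-85916097) was high in DKO1 alone among the DKO tumours, with 1.62, 1.34 and 0.304 CPM in the TKO tumours and 16, 0.102 and 0 CPM in the DKO tumours (adjusted p = 0.511). Its log2 fold change was -2.28 with all libraries and 4.20 without DKO1. TKO3, with the highest Pitx1, had 0.304 CPM of Tbx4.

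The forelimb gene Tbx5 (chr5:119832668-119885219) was low and did not pass the count filter. It had 0.083, 0.192 and 0.0507 CPM in the TKO tumours, or 7 counts in all, against 3.43, 3.26 and 0.296 CPM in the DKO tumours, or 138 counts. The groups did not overlap in CPM, but DKO3 had 5 counts and TKO2 had 4. Of all tested genes, 32.8% did not overlap. When all genes with a count were tested, Tbx5 was lower in TKO (log2 fold change -4.38, adjusted p = 0.0472), in a fit that called 4.09% of all genes. DKO1 held both the forelimb gene Tbx5 and the hindlimb genes Pitx1 and Tbx4.

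The T-box repressors Tbx2 and Tbx3, paralogs that repress cell cycle inhibitors, followed different tumours. Tbx2 (ENSMUSG00000000093.6, chr11:85832551-85841948) had 1.29, 47.6 and 138 CPM in TKO1, TKO2 and TKO3, against 5.27, 2.29 and 1.07 CPM in DKO1, DKO2 and DKO3. TKO2 and TKO3 exceeded every DKO tumour and TKO1 did not. The log2 fold change was 4.44 (SE 1.47, adjusted p = 0.122), and it passed without TKO1 (5.0, adjusted p = 0.0138) and by DESeq2 (0.00184). Tbx3 had 29.9, 72.9 and 6.48 CPM in the TKO tumours and 30.3, 27.0 and 70.3 CPM in the DKO tumours, a difference whose sign changed with the libraries left out. The range of Tbx3 between TKO2 and TKO3, 3.39 on the log2(CPM + 0.5) scale, was the only range over 8-fold between those libraries among the 29 members. Tbx2 and Tbx4 lie 44.5 kb apart, and TKO3 had the highest Tbx2 with little Tbx4.

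Of the remaining T-box genes, Tbx18, a gene of mesenchyme around vessels, ureter and heart, had 16.9, 15.3 and 10.7 CPM in TKO1, TKO2 and TKO3, against 92.7, 18.4 and 48.5 CPM in DKO1, DKO2 and DKO3. Each TKO value lay below each DKO value. Among the pericyte and smooth muscle markers, Pdgfrb had 12.4, 249 and 275 CPM in TKO and 367, 86.7 and 109 CPM in DKO, highest in DKO1 as was Tbx18, whereas Rgs5 had 32.5, 65.5 and 187 CPM in TKO and at most 0.0593 CPM in DKO. Their part in the level of Tbx18 was not tested. The difference did not pass (log2 fold change -1.89, SE 0.58, adjusted p = 0.104) except by DESeq2 (0.0213). Tbx15, a gene of limb skeleton and muscle, had 30.6, 47.5 and 40.9 CPM in TKO and 83.3, 47.1 and 48.8 CPM in DKO, with overlap at TKO2 and DKO2. Tbx20, a heart gene, had 0.872, 2.54 and 0.659 CPM in TKO and 0, 0.255 and 0 CPM in DKO, without overlap (log2 fold change 3.88, SE 1.32, adjusted p = 0.13). By DESeq2 it passed at 0.0404. Tbx6, a gene of early paraxial mesoderm, had 0.415, 1.82 and 2.43 CPM in TKO and 1.19, 4.69 and 2.07 CPM in DKO. Tbx1, which acts in the pharyngeal arches, had 0.125, 1.77 and 0.963 CPM in TKO and 0.348, 0.153 and 0.237 CPM in DKO. Tbx10, Tbx19 and Tbx21 stayed under 1 CPM, and Tbx22 had no counts. Tbx21, which encodes the T-bet protein of T and NK cells, had 13 counts in TKO and 2 in DKO (ratio 5.69, 95% counting interval 1.29 to 51.9), beside a sum of 15 T and NK cell markers of 3.53 to 31.7 CPM in TKO and 0 to 0.178 CPM in DKO.

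**Figure D2:**
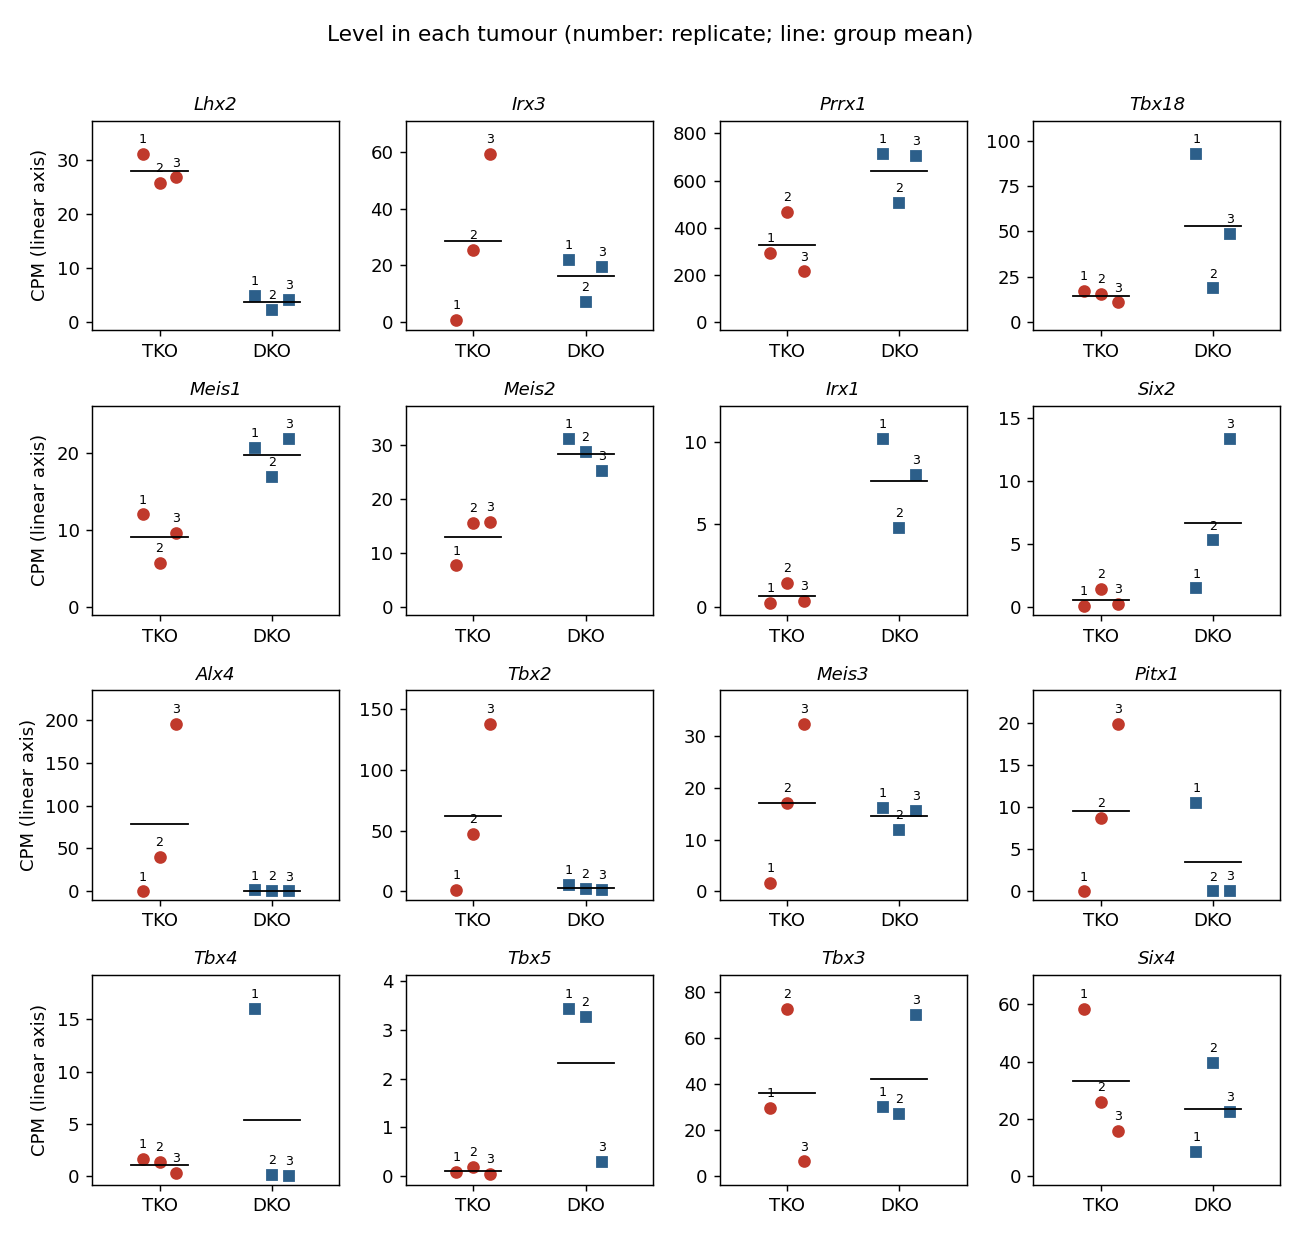
Level of 16 members in each tumour in CPM on linear axes, with TKO circles left of DKO squares, replicate numbers above the points and the group mean as a line. The 3 TKO values of Lhx2 (25.7 to 31.0 CPM) sit far above the 3 DKO values (2.19 to 4.72 CPM), whereas Tbx4 is high in DKO1 alone and Alx4 and Tbx2 in TKO2 and TKO3.

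The Iroquois genes, which act in limb, heart and neural patterning, are arranged in clusters. In the cluster on chromosome 13, Irx1 (ENSMUSG00000060969.9, chr13:71957921-71963723) had 0.208, 1.44 and 0.355 CPM in TKO1, TKO2 and TKO3, against 10.2, 4.79 and 8.0 CPM in DKO1, DKO2 and DKO3. The groups did not overlap, with a log2 fold change of -3.51 (SE 0.87) and an adjusted p of 0.0587, just above the threshold. Irx1 passed without TKO2 (0.0447), by limma-voom (0.0326), by DESeq2 (0.000184), with no count filter (0.0285) and with reads on strand 2 alone (0.0207), and its adjusted p ran to 0.163 over all alternatives. Its neighbour Irx2, 665 kb away, had 10, 2.3 and 0 CPM in TKO and 16.4, 3.36 and 27.7 CPM in DKO, with overlap. Irx4 had no counts.

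In the cluster on chromosome 8, Irx3 and Irx5, which act together in limb bud initiation, lie 556 kb apart and parted in TKO1. Irx3 had 0.664, 25.5 and 59.4 CPM in TKO1, TKO2 and TKO3 and 22, 7.04 and 19.5 CPM in DKO1, DKO2 and DKO3. Irx5 had 29.1, 17.3 and 44.1 CPM in TKO and 22.5, 8.05 and 18.3 CPM in DKO. TKO1 thus kept Irx5 but had little Irx3. Neither difference passed (adjusted p = 0.715 and 0.326), and Irx6 stayed under 1 CPM. Irx3 shares exon sequence with Irx3os on the other strand.

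Sine oculis homeobox proteins are homeodomain partners of the EYA coactivators. Six4, which acts in muscle precursors, had 58.5, 25.9 and 15.9 CPM in TKO1, TKO2 and TKO3 and 8.6, 39.6 and 22.6 CPM in the DKO tumours, with overlap (adjusted p = 0.682). TKO1, the tumour with the most Six4, also had the highest levels of Myf5, Myod1 and Myog, regulators of myoblasts. Myf5 had 283, 0 and 0 CPM in TKO1, TKO2 and TKO3, and 0, 0 and 0.356 CPM in DKO1, DKO2 and DKO3. Myod1 had 90.2, 5.23 and 1.42 CPM and Myog 115, 4.89 and 2.94 CPM in the TKO tumours, and both were at 0 in DKO. DKO2, with the next highest level of Six4 (39.6 CPM), thus had Myf5, Myod1 and Myog at 0. Myf6, a further myogenic regulator, was highest in TKO2, with 2.37, 22.2 and 2.94 CPM in the TKO tumours and 0 in DKO. The sum of all 15 muscle markers, most of them genes of mature fibres, was instead lowest in TKO1 within its group (900, 11322 and 1998 CPM). The part of myogenic RNA in the level of Six4 was not tested.

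Six2, a gene of nephron progenitors and facial mesenchyme, had 0.083, 1.39 and 0.203 CPM in TKO1, TKO2 and TKO3, against 1.44, 5.25 and 13.3 CPM in DKO1, DKO2 and DKO3. The groups came close between TKO2 and DKO1 without overlap, and the log2 fold change of -3.56 (SE 1.28) did not pass (adjusted p = 0.144), except by DESeq2 (0.0132). Six5, whose gene lies beside Dmpk, had 6.56, 15.3 and 15 CPM in TKO and 11.8, 19.0 and 18.3 CPM in DKO, with overlap. Six3 and Six6, which act in eye and forebrain, had 2 counts each over the 6 libraries.

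All 7 Meis and Pbx genes, 3 Meis and 4 Pbx, passed the count filter, and none passed the test between genotypes by edgeR. Meis1 had 12.0, 5.7 and 9.58 CPM in TKO1, TKO2 and TKO3, against 20.6, 16.9 and 21.8 CPM in DKO1, DKO2 and DKO3. Meis2 had 7.64, 15.5 and 15.7 CPM in TKO, against 31.1, 28.7 and 25.2 CPM in DKO. Both had lower values in every TKO tumour, with log2 fold changes of -1.11 (SE 0.40) and -1.13 (SE 0.38), but neither passed by edgeR's quasi-likelihood test (adjusted p = 0.143 and 0.122). Meis2 passed by DESeq2 (0.0459). Meis3 parted from them, with 1.58, 17.1 and 32.3 CPM in TKO and 16.1, 11.8 and 15.5 CPM in DKO, low in TKO1 alone.

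PBX proteins pair with MEIS and Hox proteins on DNA. Pbx2 had 26.2, 60.6 and 71.8 CPM in TKO1, TKO2 and TKO3 and 30.9, 30.4 and 48 CPM in the DKO tumours. Pbx2 shares exon sequence with Gpsm3. Pbx3 had 24.3, 19.4 and 31.9 CPM in TKO and 24.3, 14.0 and 17.8 CPM in DKO. Both overlapped between the genotypes, with log2 fold changes of 0.54 and 0.44 and adjusted p of 0.474 and 0.482. Pbx4 was low, with 0.125, 0.0479 and 0.557 CPM in TKO and 0.0994, 1.33 and 4.09 CPM in DKO. Exon sequence is also shared with another gene by Alx1, Irx6, Lhx3, Lhx5, Lhx6, Meis1, Pitx1, Six3, Six6, Tbx3 and Tbx18. Reads that fell in both genes of such a pair were left out, so the counts of these genes may be too low.

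**Figure D3:**
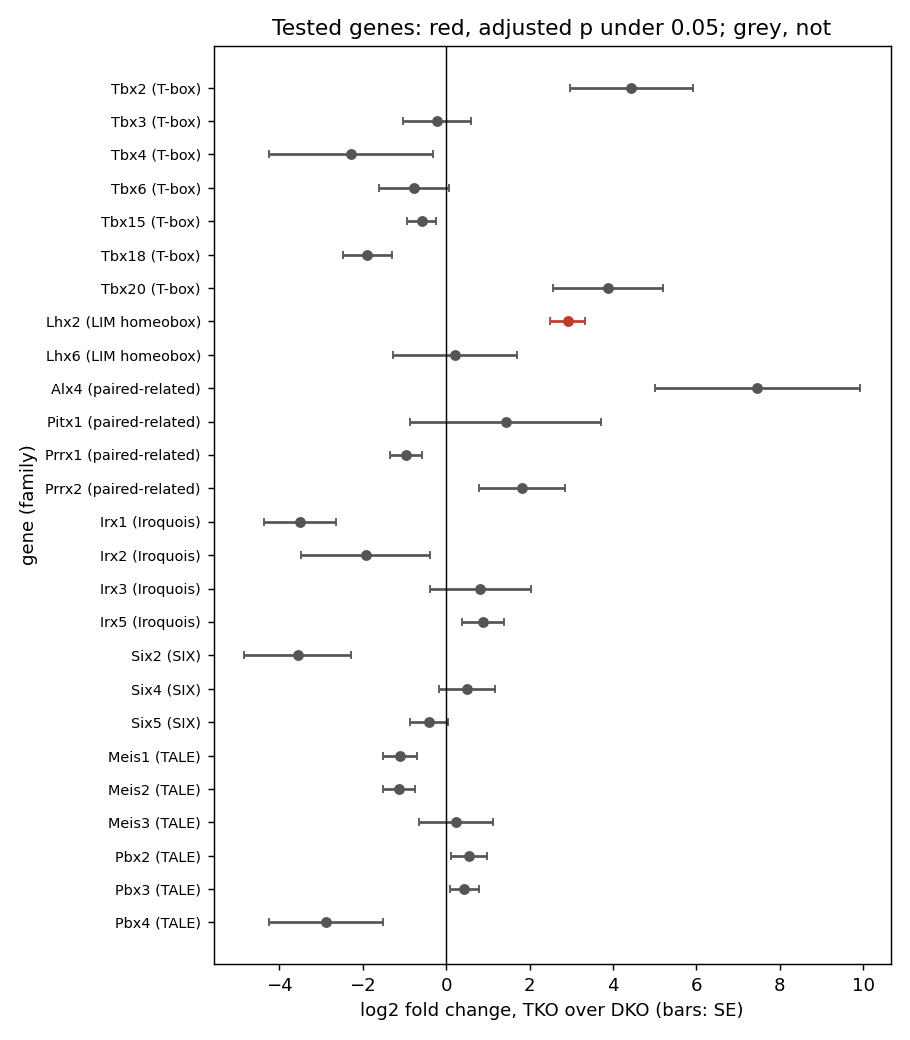
Log2 fold change of TKO over DKO for 26 tested members, ordered by family, with bars of 1 SE. Lhx2 (2.92) is the only point in red, past an adjusted p of 0.05, and the bars of Alx4 (SE 2.46), Pitx1 (SE 2.29) and Tbx4 (SE 1.97) are among the widest.

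Spread between tumours of the same genotype was wide in these genes. On the log2(CPM + 0.5) scale the median range over the 3 TKO tumours was 1.47 for the 29 tested members and 1.04 for all tested genes, and over the 3 DKO tumours 1.43 and 0.66. A range over 8-fold in TKO was found for 9 members, among them Alx4, Irx2, Irx3, Meis3, Pitx1, Prrx2, Tbx2 and Tbx3 (31.0%, against 8.77% of all tested genes). In DKO it was found for 3 members, Pitx1 and Tbx4 among them (10.3%, against 1.94%). Between TKO2 and TKO3 alone the median range was 0.95 for members and 0.45 for all tested genes, and 1 member passed 8-fold (3.45%, against 1.78%). Of the members wide in TKO, Alx4, Irx3, Meis3, Pitx1, Prrx2 and Tbx2 were lowest in TKO1, and Irx2 was highest there. TKO1 was also the only male TKO tumour, so sex and tumour cannot be told apart for these values. No test was made of the spread itself.

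**Figure D4:**
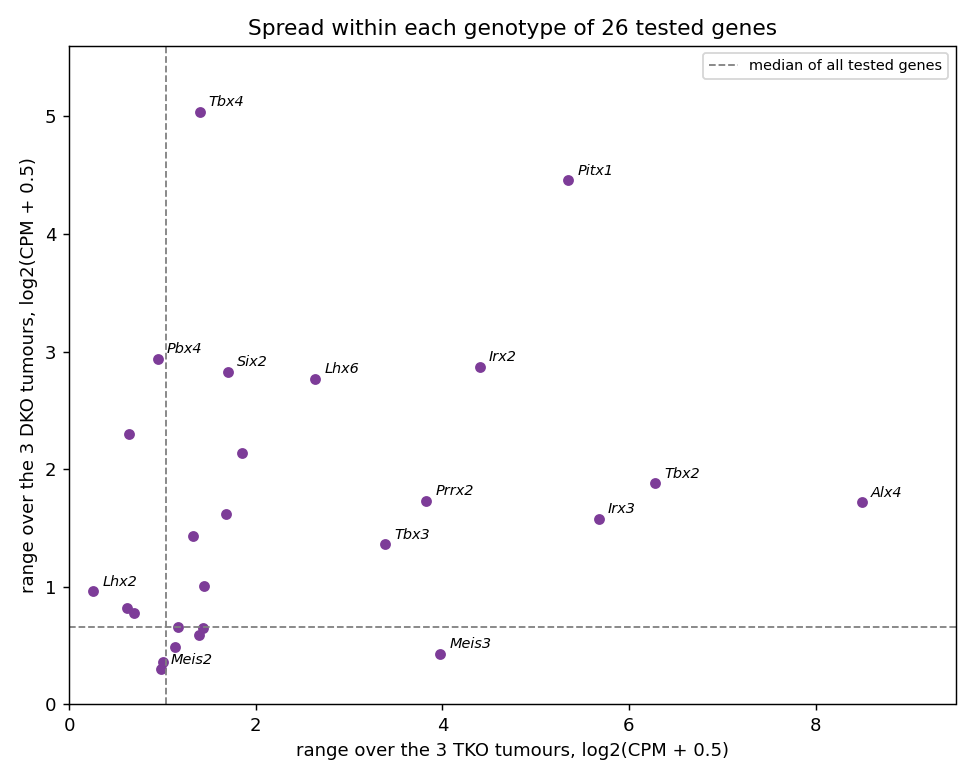
Range over the 3 TKO tumours (x axis) against the range over the 3 DKO tumours (y axis) of 26 tested members, both in log2(CPM + 0.5), with dashed lines at the medians of all tested genes (1.04 and 0.66). Alx4 reaches 8.5 in TKO, Tbx4 5.04 in DKO, Pitx1 is wide in both, and Lhx2 lies at 0.26 in TKO.

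Partner and pathway genes are given beside the 7.36% of all tested genes called in either direction (4.89% higher and 2.47% lower). Their lists are too small to compare with these shares. Of 9 tested LIM cofactors 1 rose in TKO and 0 fell: Lmo2, which bridges LDB1 complexes in blood and endothelial cells, had 5.27, 30.4 and 19.6 CPM in TKO1, TKO2 and TKO3, against 0.0994, 0 and 0 CPM in DKO1, DKO2 and DKO3 (ratio 503, 95% counting interval 139 to 4156, adjusted p = 0.0182). Over the 3 TKO tumours its values had the same order as the endothelial sum. The macrophage and skeletal muscle sums had that order too, as did the pericyte and smooth muscle sum with Des included. Des gave 17.5, 1147 and 158 CPM of that last sum in TKO1, TKO2 and TKO3, and is also a skeletal muscle gene. The part of RNA of these cells in the level of Lmo2 was not tested. The adaptor Ldb1, through which LHX2 acts, had 106, 99.1 and 122 CPM in TKO and 71.4, 72.3 and 136 CPM in DKO, with overlap.

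Of 5 other TALE genes tested, 1 fell and 0 rose. Tgif1, a TALE repressor of TGF-beta and retinoid signalling, had 63.4, 44.1 and 37.5 CPM in TKO, against 126, 166 and 199 CPM in DKO (log2 fold change -1.76, SE 0.32, adjusted p = 0.0285). Of 17 tested limb field signals and regulators, 1 fell and 0 rose. Grem1, a secreted BMP antagonist that keeps the limb bud signalling loop active, had 0.083, 5.61 and 6.48 CPM in TKO, against 1183, 271 and 1077 CPM in DKO (log2 fold change -7.69, SE 1.51, adjusted p = 0.0333). Its groups were separated by more than an order of magnitude at their nearest values. The Lmo2 call was lost without DKO1 (0.0713), DKO2 (0.083) or DKO3 (0.0805), and the Tgif1 and Grem1 calls were lost without each single DKO library (0.0751 to 0.127 and 0.0924 to 0.109), without TKO2 (0.0803 and 0.0896) or without TKO3 (0.0761 and 0.0812). With genes of at least 1 CPM in 1 library of each group alone, Tgif1 and Grem1 lost the call too (0.0627 and 0.0671), as did Grem1 with no count filter (0.125).

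None of the 3 tested cofactors of sine oculis homeobox proteins, 3 other LIM homeobox genes, 16 other patterning homeobox genes (Msx, Dlx, Pax and the like) or the single other T-box gene tested, Mga, passed in either direction by edgeR's quasi-likelihood test. The median log2 fold changes of these lists were -0.16, -0.11, 0.79 and -0.99. Ldb1, the single markers of other cells given beside Lhx2, Lmo2, Tbx18 and Six4, and the next genes, Eya1 to Eya4 and Fgf10, were picked after their values were seen. Eya1, one of those cofactors, had 81.6, 41.5 and 6.43 CPM in TKO1, TKO2 and TKO3 and 6.31, 6.32 and 12.2 CPM in DKO1, DKO2 and DKO3 (adjusted p = 0.14), highest in TKO1 as were Six4, Myf5, Myod1 and Myog. Fgf10, a limb outgrowth signal, had 0, 1.25 and 0 CPM in TKO, against 14.2, 14.3 and 30.6 CPM in DKO, without overlap (adjusted p = 0.0957).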

How the data were processed

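RNA of 3 TKO and 3 DKO mouse osteosarcomas was sequenced after oligo(dT) selection, per the labels' protocols. The authors deposited raw read counts per gene, unnormalized, in the layout of STAR gene counting. STAR 2.6.1 and mm10 are named per the submitters' processing notes, and the release of the annotation was not given in the sources used. The count column for either strand was used, since strand 1 held 50.2 to 51.3% of the stranded counts, and reads in no gene (5.33 to 9.3%) or in several genes (5.1 to 6.53%) were left out. The series table held the same counts (0 genes differed).

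Of 56196 gene IDs, 55240 matched a symbol in GENCODE M21 (GRCm38). Genes passing filterByExpr (minimum count 10) were scaled by TMM and tested by edgeR's quasi-likelihood test (edgeR 4.0.16 in R 4.3.3). The p-values were adjusted by Benjamini-Hochberg over all genes, at a threshold of 0.05. The procedure was also run on simulated counts drawn independently for each gene, with no library set apart as TKO1 was. The SE comes from the log2 fold change and the F statistic. DESeq2 1.42.0 and limma-voom (limma 3.58.1) were alternatives. Folds against a group at 0 use a floor of 3 counts over the group, and 95% intervals are exact. There were no molecular identifiers, so that both reflect the error of counting alone. Every pair of libraries within a group differed by more than sampling noise.

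The members and lists were chosen with earlier results of these data known. Some members are not reported here, and counts over the members include them. Each other member that reached 1 CPM in any tumour is given with its 6 values, and of each partner list up to 4 called genes are named.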

Additional observations from a re-analysis of the deposited data

How the results depend on the processing

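Of 434 member values recomputed over 17 alternatives (26 members), 401 kept their direction and their side of the threshold. The 1 higher member stayed 1 with other scalings (RLE, library totals, upper quartile), with no count filter, with genes of at least 1 CPM in both groups, by limma-voom and with either strand. It became 5 by DESeq2 and 2 with sex as a covariate, and ran from 0 to 3 when 1 library was left out. The 0 lower members became 2 with no count filter, 4 by DESeq2, 1 by limma-voom and 1 with strand 2 alone, and ran from 0 to 1 when 1 library was left out. Over all genes, 1131 calls became 146 with genes of at least 1 CPM in both groups, 2893 by DESeq2, 295 under the replicate block, and 0 (without DKO3, by edgeR, with 3017 at an unadjusted p under 0.05) to 2385 (without TKO1). With the replicate number as a block, 1 member was higher (Lhx2, adjusted p = 0.0499) and 0 lower, by edgeR. Samples with the same number showed almost no shared deviation (correlations -0.00699, 0.00889 and -0.0167), and not every sample correlated best with its own number. With 3 libraries a group these values cannot exclude a pairing, and replicate 1 was the male of each group. The block also ended the calls of Tgif1 (0.0925), Lmo2 (0.0691), Grem1 (0.106) and Skp2 (0.105). Without 1 library, the Skp2 adjusted p ran from 0.0252 (without TKO1) to 0.118 and the call was lost in the other 5 refits.

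No sign turned in Lhx2. The log2 fold change of Irx3 became -0.65 by limma-voom, and that of Meis3 -0.67 by the same tool, -0.37 with the replicate block and -0.32 with sex as a covariate. Tbx4 became 1.16, 1.28 and 1.38 under the same 3 settings and Lhx6 -0.10 with strand 1. With 1 library left out in turn, log2 fold changes ran from -0.29 to 1.39 for Irx3, -1.27 to 0.74 for Lhx6 and -0.62 to 0.77 for Meis3. They ran from -0.00 to 2.49 for Prrx2, -0.17 to 1.09 for Six4, -1.21 to 0.35 for Tbx3 and -2.88 to 4.20 for Tbx4. The cause was not tested.

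With 3 tumours a group, 1 male and 2 female, an effect of sex rests on 1 tumour a group. At these depths a count of 0 allows up to 0.125 to 0.178 CPM. The labels used here name no skeletal site, so site and genotype cannot be told apart for the limb field genes.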
